A study of Homo sapiens with 12 samples.

Results

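The 8 genes described here encode acid-base transporters and carbonic anhydrases. They were chosen by name, with earlier results of these data known, out of the 25733 genes with a value in the deposited table. They are the bicarbonate transporters SLC4A2 and SLC4A7, the carbonic anhydrases CA2, CA12 and CA13, the monocarboxylate transporters SLC16A1 and SLC16A3, and the cotransporter SLC12A2. Bulk RNA sequencing was done on HCT116, an established human colorectal cancer cell line, as 12 libraries, 3 for each of 4 groups. Cells received no treatment (control), TGF-β alone, NH4Cl alone, or NH4Cl plus TGF-β. By the methods of the study, NH4Cl was given at 10 mM for 24 h, and TGF-β at 200 pM for the last 1 h after 23 h with vehicle or NH4Cl, while the labels name no doses or times. Reads assigned to genes ranged from 14807630 to 18191998 per library, with a median of 15484798. All levels below are FPKM, read counts scaled by the authors to gene length and sequencing depth.

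Cells hold their internal pH by moving protons and bicarbonate across the membrane and by interconverting carbon dioxide and bicarbonate, the reaction that carbonic anhydrases speed up. Ammonium chloride supplies ammonia, a weak base that crosses membranes and takes up a proton, together with ammonium, an ion of a size near that of potassium that can pass through several potassium routes. Colonic epithelium meets ammonia made by gut bacteria and expresses many of these transporters.

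Markers matched the labelled epithelial line. All 8 epithelial genes listed had a mean of at least 1 FPKM, with a summed level of 2380 to 3590 FPKM per library and KRT18 highest at 876 FPKM. Of 7 intestinal genes, 6 reached that mean, with a sum of 148 to 168 FPKM and VIL1 highest at 90.3 FPKM. Of 5 leukocyte genes, 3 were in the table and summed to 0.730 to 2.51 FPKM, LYZ being the highest at 1.12 FPKM, while PTPRC and CD68 were not analysed here. The 5 fibroblast genes summed to 8.01 to 11.2 FPKM, of which LUM made up 7.79 FPKM on average, and COL1A2 and DCN were below 0.05 FPKM. The 4 endothelial genes summed to 1.58 to 6.84 FPKM, with VWF at 3.01 FPKM, and PECAM1 and KDR below 0.05 FPKM. Erythroid cells are rich in carbonic anhydrases, and 4 of 5 erythroid genes were in the table with a sum of 1.27 to 3.34 FPKM, HBA1 at 1.34 FPKM and HBB below 0.05 FPKM.

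The 4 libraries numbered 3, 1 in each group, stood apart from the others. Mitochondrial genes took 4.50 to 5.12% of their reads, against 2.46 to 3.18% in the libraries numbered 1 and 2. On the log2(FPKM + 1) scale, SLC16A3 was higher in number 3 than in the mean of numbers 1 and 2 by 0.66 on average over the 4 groups, with a range of 0.57 to 0.74. SLC12A2 differed by -0.56, SLC16A1 by -0.50 and SLC4A2 by -0.32, each lower in number 3 in 4 of 4 groups, whereas SLC4A7 differed by 0.08. CA9, a membrane-bound carbonic anhydrase with an outward-facing active site, was chosen after its values were seen: it measured 14.2 to 27.4 FPKM in numbers 1 and 2 and 83.9 to 93.8 FPKM in number 3. The labels do not say what a replicate number stands for. Tests are therefore given without the replicate number, with it as a block, which compares libraries within each number, and with the block on numbers 1 and 2 alone.

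Of the 8 genes, 5 had a mean of at least 1 FPKM and were tested among 12341 genes, while CA2, CA12 and CA13 fell below that minimum. Levels over the 12 libraries averaged 42.6 FPKM for SLC16A3, 35.2 FPKM for SLC16A1, 22.0 FPKM for SLC4A2, 9.03 FPKM for SLC12A2 and 5.02 FPKM for SLC4A7, which places them between ranks 1046 and 7269 of all genes. The ranges of SLC16A3 and SLC16A1 overlapped, as did those of SLC16A1 and SLC4A2, and those of SLC12A2 and SLC4A7. The carbonic anhydrases were lower, with means of 0.728 FPKM for CA2, 0.335 FPKM for CA13 and 0.0540 FPKM for CA12.

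**Figure D1:**
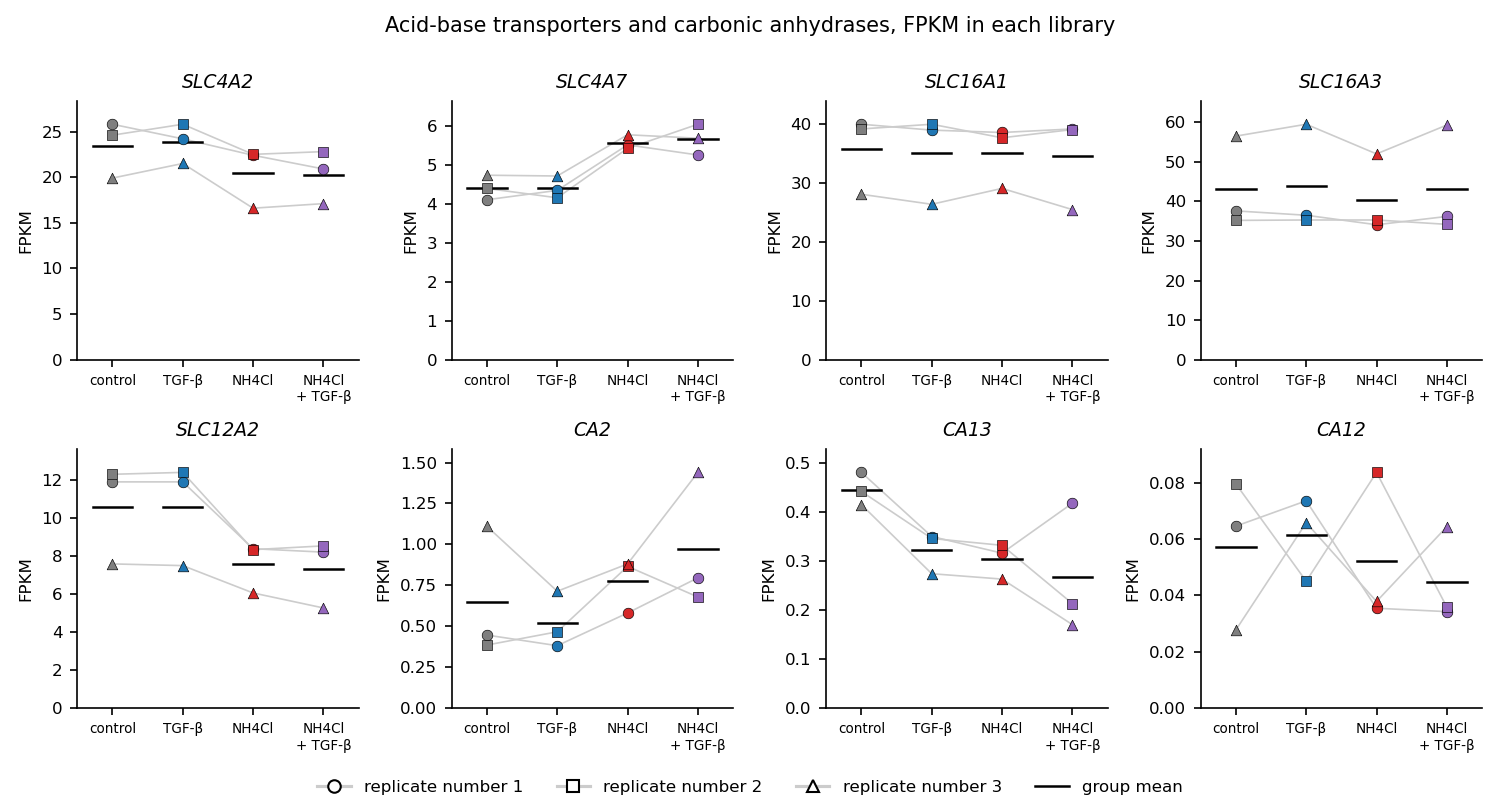
FPKM of each of the 8 genes in 12 libraries of HCT116 cells, with a marker shape for each replicate number, grey lines joining libraries of the same number and black bars for group means (n = 3). SLC4A7 was higher in every library with NH4Cl (5.26 to 6.05) than in every library without it (4.11 to 4.74). For NH4Cl against control, 17.5% of all genes tested had groups that did not overlap. SLC12A2 was lower with NH4Cl within each replicate number.

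NH4Cl against control asks how a day of ammonium chloride bears on these transcripts, and NH4Cl plus TGF-β against TGF-β asks the same in cells that received the cytokine. NH4Cl plus TGF-β was also compared with control. The first and the last of these share the control libraries, and the last 2 share the NH4Cl plus TGF-β libraries, so they are not independent of each other. Without the block, limma called 0 of the 5 genes at an adjusted p under 0.05 in NH4Cl against control, where 0.381% of all genes tested were called, 0 of 5 in NH4Cl plus TGF-β against control, against 0.948%, and 0 of 5 in NH4Cl plus TGF-β against TGF-β, against 1.03%. At an unadjusted p under 0.05, limma counted 1 of the 5 in each of these comparisons, and 1333, 1618 and 1642 of all genes. With the block, SLC4A7 was called higher and SLC4A2 and SLC12A2 lower in all 3 comparisons. That is 3 of 5 in NH4Cl against control, beside 13.6% of all genes, of which 7.42% were higher and 6.14% lower. For NH4Cl plus TGF-β against control the 3 of 5 stand beside 18.4%, with 10.7% higher and 7.77% lower. For NH4Cl plus TGF-β against TGF-β they stand beside 18.8%, with 10.3% higher and 8.48% lower. The genes and the lists below were chosen with earlier results of these data known, so counts beside these shares do not test the sets. Which direction held more genes depended on the scaling in NH4Cl against control, where 916 higher and 758 lower became 777 and 892 after median centring. With the block on numbers 1 and 2 alone, 2 of 5 were called in each of the 3 comparisons, SLC4A7 and SLC12A2, beside 9.42%, 13.1% and 13.6% of all genes in the order above. The median log2 fold changes of the 5 genes were -0.09, -0.05 and -0.02 in these comparisons, against 0.00 for all genes tested in each.

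SLC4A7, the electroneutral sodium bicarbonate cotransporter NBCn1, brings bicarbonate into the cell and so loads it with base. The gene (ENSG00000033867) lies on chr3:27372721-27484420 of GRCh38, minus strand. Its level was 4.11, 4.40 and 4.74 FPKM in the control libraries numbered 1 to 3, and 4.35, 4.16 and 4.72 FPKM with TGF-β. With NH4Cl it was 5.52, 5.43 and 5.78 FPKM, and with NH4Cl plus TGF-β 5.26, 6.05 and 5.69 FPKM. All 6 libraries with NH4Cl were above all 6 without it, so that the groups did not overlap in any of the 3 comparisons with NH4Cl. Such separation was seen in 17.5% of all genes tested for NH4Cl against control, 16.6% for NH4Cl plus TGF-β against control and 16.3% for NH4Cl plus TGF-β against TGF-β. Group means were 4.42 ± 0.311 FPKM in control, 4.41 ± 0.286 with TGF-β, 5.58 ± 0.180 with NH4Cl and 5.66 ± 0.397 under both agents (SD, n = 3), and the gene had 607 to 929 reads per library. Within numbers 1, 2 and 3, NH4Cl differed from control by 34.2, 23.4 and 22.0%. In bulk RNA, fewer cells of a type and less RNA per cell cannot be told apart, for this gene and those that follow.

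The log2 fold change of SLC4A7 in NH4Cl against control was 0.28, with an SE of 0.0691 and an adjusted p = 0.127 without the block, and an SE of 0.0546 and an adjusted p = 0.00985 with it. In NH4Cl plus TGF-β against control it was 0.30, with an adjusted p = 0.0801 without and 0.00537 with the block. In NH4Cl plus TGF-β against TGF-β it was also 0.30, with an adjusted p = 0.0818 without and 0.00539 with the block. SLC4A7 thus rose with NH4Cl in the model with the block, being higher in 3 of 3 numbers in each comparison. Without the libraries numbered 3, it kept the call, at 0.30, 0.34 and 0.34 (adjusted p = 0.0474, 0.0297 and 0.0277). Without number 1 it lost the call in all 3 comparisons, at 0.25, 0.30 and 0.34 (adjusted p = 0.131, 0.0650 and 0.0543), and so it did without number 2, at 0.30, 0.26 and 0.23 (adjusted p = 0.0794, 0.0764 and 0.107). Over the 8 settings with the block, the adjusted p ran from 0.00985 to 0.131 in NH4Cl against control, from 0.00537 to 0.0764 in NH4Cl plus TGF-β against control, and from 0.00539 to 0.107 in NH4Cl plus TGF-β against TGF-β. Fold changes are on the log2(FPKM + 1) scale, which understates the change of genes at low levels. Replicate p-values measure the spread between libraries, which may be technical, since the labels do not say whether replicates were separate cultures.

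SLC4A2, the anion exchanger AE2, works in the other direction: it lets bicarbonate out in exchange for chloride and so loads the cell with acid. The gene (ENSG00000164889) lies on chr7:151057210-151076527, plus strand. Control libraries numbered 1 to 3 had 25.8, 24.6 and 19.9 FPKM, and TGF-β libraries 24.2, 25.8 and 21.5 FPKM. With NH4Cl the values were 22.4, 22.5 and 16.6 FPKM, and with NH4Cl plus TGF-β 20.9, 22.8 and 17.1 FPKM. The groups overlapped because number 3 was the lowest library in each group, but NH4Cl was below control within each number, with changes of -13.0, -8.47 and -16.8%. NH4Cl plus TGF-β differed from TGF-β by -14.0, -11.7 and -20.5%. Group means were 23.4 ± 3.09 FPKM in control, 23.8 ± 2.16 with TGF-β, 20.5 ± 3.40 with NH4Cl and 20.2 ± 2.88 under both agents (SD, n = 3).

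For SLC4A2 the log2 fold change in NH4Cl against control was -0.19, with an SE of 0.144 and an adjusted p = 0.739 without the block, and an SE of 0.0499 and an adjusted p = 0.0342 with it. In NH4Cl plus TGF-β against control it was -0.20 (adjusted p = 0.629 without and 0.0206 with the block), and in NH4Cl plus TGF-β against TGF-β -0.23 (adjusted p = 0.559 and 0.0120). It fell in the model with the block, and this call was lost whenever any replicate number was left out. Without number 3 the values were -0.16, -0.20 and -0.19 (adjusted p = 0.111, 0.0530 and 0.0600). Without number 1 they were -0.19, -0.16 and -0.24 (adjusted p = 0.141, 0.161 and 0.0636), and without number 2 -0.22, -0.25 and -0.26 (adjusted p = 0.156, 0.0845 and 0.0777). Over the 8 settings with the block the adjusted p ran from 0.0282 to 0.156, from 0.0175 to 0.161 and from 0.0116 to 0.0777. The exons of SLC4A2 share 331 of 7590 bases with CDK5 and 714 with AC010973.2 on the opposite strand. CDK5 averaged 4.94 FPKM and AC010973.2 0.191 FPKM, and since the counting is not stated to use the strand, reads from these stretches are uncertain in origin.

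The list of bicarbonate transporters of the SLC4 and SLC26 families held 21 genes, of which 20 were in the table and 7 were tested. With the block, 2 were higher and 1 lower in each of the 3 comparisons with NH4Cl, beside 7.42%, 10.7% and 10.3% of all genes higher and 6.14%, 7.77% and 8.48% lower. Without it limma called 0 in each, with 1 of the 7 at an unadjusted p under 0.05 in each. The list's median log2 fold change was -0.03 in NH4Cl against control, -0.06 in NH4Cl plus TGF-β against control and -0.12 in NH4Cl plus TGF-β against TGF-β. Beside SLC4A7 and SLC4A2, the called gene was SLC26A6, an anion exchanger that carries chloride, bicarbonate and oxalate. SLC26A6 measured 6.37, 5.25 and 9.25 FPKM in control and 7.89, 7.07 and 11.0 FPKM with NH4Cl, a log2 fold change of 0.29 (adjusted p = 0.814 without and 0.0145 with the block). It was 0.35 in NH4Cl plus TGF-β against control (adjusted p = 0.669 and 0.00419).

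SLC12A2, the cotransporter NKCC1, carries sodium, potassium and chloride into the cell together, and ammonium can take the place of potassium on it. The gene (ENSG00000064651) lies on chr5:128083766-128189688, plus strand. Its level was 11.9, 12.3 and 7.58 FPKM in the control libraries numbered 1 to 3, and 11.9, 12.4 and 7.49 FPKM with TGF-β. With NH4Cl it was 8.38, 8.33 and 6.05 FPKM, and with NH4Cl plus TGF-β 8.20, 8.53 and 5.26 FPKM. The groups overlapped through the low libraries numbered 3, whereas in numbers 1 and 2 every library with NH4Cl was below every library without it. How many of all genes had such a gap in numbers 1 and 2 was not counted. NH4Cl differed from control by -29.3, -32.4 and -20.2% within numbers 1, 2 and 3, and NH4Cl plus TGF-β from TGF-β by -30.9, -31.4 and -29.7%. Group means were 10.6 ± 2.62 FPKM in control, 10.6 ± 2.71 with TGF-β, 7.59 ± 1.33 with NH4Cl and 7.33 ± 1.80 under both agents (SD, n = 3), on 932 to 2351 reads per library.

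The log2 fold change of SLC12A2 was the largest in absolute size among the 5 genes in the 3 comparisons with NH4Cl. In NH4Cl against control it was -0.42, with an SE of 0.237 and an adjusted p = 0.593 without the block, and an SE of 0.0512 and an adjusted p = 0.00125 with it. It was -0.47 in NH4Cl plus TGF-β against control (adjusted p = 0.448 without and 5.2e-04 with the block) and -0.47 against TGF-β (adjusted p = 0.435 and 5.2e-04). SLC12A2 fell with NH4Cl in the model with the block, being lower in 3 of 3 numbers in each comparison. Without number 3 it kept the call, at -0.48, -0.48 and -0.49 (adjusted p = 0.00352, 0.00294 and 0.00264). Without number 1, NH4Cl against control came to -0.40 (adjusted p = 0.0520), past the threshold no longer, while the other 2 comparisons kept their call at -0.47 each (adjusted p = 0.0289 and 0.0294). Over the 8 settings with the block, the adjusted p ran from 0.00104 to 0.0520 in NH4Cl against control, from 4.2e-04 to 0.0289 in NH4Cl plus TGF-β against control, and from 4.8e-04 to 0.0294 in NH4Cl plus TGF-β against TGF-β.

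**Figure D2:**
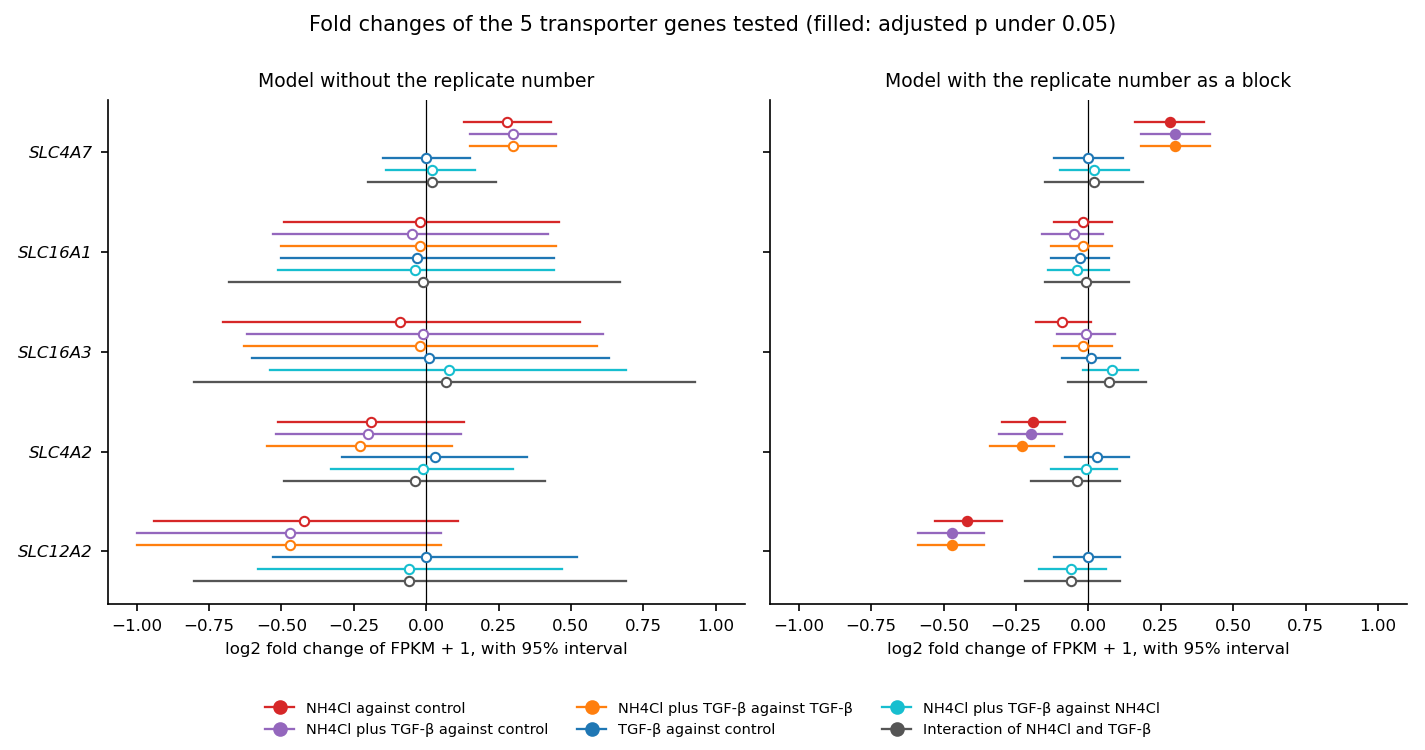
Log2 fold change of FPKM + 1 with its 95% interval for the 5 genes tested in 6 comparisons, without the replicate number on the left and with it as a block on the right; filled points have an adjusted p under 0.05. With the block, SLC4A7 lies between 0.28 and 0.30 and SLC12A2 between -0.47 and -0.42 in the 3 comparisons with NH4Cl, and SLC16A1 and SLC16A3 lie within 0.09 of 0 there.

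The list of cation-chloride cotransporters and their kinases held 15 genes, with 13 in the table and 10 tested. With the block, 3 were lower in NH4Cl against control and 0 higher, 2 were lower in NH4Cl plus TGF-β against control and 3 in NH4Cl plus TGF-β against TGF-β, beside 6.14%, 7.77% and 8.48% of all genes, while the list's medians were -0.02, -0.10 and -0.10. SLC12A4, the potassium chloride cotransporter KCC1, lets both ions out of the cell. It measured 9.22, 8.23 and 7.53 FPKM in control and 5.79, 6.00 and 5.95 FPKM with NH4Cl, without overlap, like 17.5% of all genes tested. Its log2 fold change in NH4Cl against control was -0.43 (adjusted p = 0.0926 without and 0.0160 with the block), and with TGF-β added -0.40 against control (adjusted p = 0.0892 and 0.0171). SLC12A9, of the same family, gave -0.24 in NH4Cl against control (adjusted p = 0.512 without and 0.0259 with the block, and 0.0976 without number 3) and -0.16 in NH4Cl plus TGF-β against control (adjusted p = 0.0848 with the block), and against TGF-β -0.20 (adjusted p = 0.0405 with the block, and 0.220 without number 3). SLC12A2 at a mean of 9.03 FPKM was below SLC12A7, which encodes the outward cotransporter KCC4 and averaged 58.3 FPKM.

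Since SLC4A7, SLC4A2 and SLC12A2 were called in the blocked model, the 250 bases before a start site of each are shown. RefSeq start sites on GRCh38.p14 were matched for 5 of the 8 genes: SLC4A2 with 4 windows, SLC4A7 with 2, SLC12A2 with 1, CA12 with 1 and SLC16A3 with 5, while SLC16A1, CA2 and CA13 had no entry. Each window searched held 300 bases, 250 before the start and 50 from it on, and 6 motifs, none of which contains another, were searched on both strands. The E-box CACGTG was held by 7.26% of all 35116 windows, and the hypoxia response cores written GACGTG by 7.81% and the shorter form GCGTG by 36.5%. The AP-1 motif TGACTCA was held by 4.95% of them, the palindromic SMAD motif GTCTAGAC by 0.202%, and the further SMAD motif CAGACA by 16.9%. In the sequences, given 5′ to 3′ on the strand of the gene, capitals mark each match to a motif or to its reverse complement. They are SLC4A7 at chr3:27484385-27484634 on the minus strand, SLC4A2 at chr7:151062392-151062641 on the plus strand, and SLC12A2 at chr5:128083516-128083765 on the plus strand.
SLC4A7: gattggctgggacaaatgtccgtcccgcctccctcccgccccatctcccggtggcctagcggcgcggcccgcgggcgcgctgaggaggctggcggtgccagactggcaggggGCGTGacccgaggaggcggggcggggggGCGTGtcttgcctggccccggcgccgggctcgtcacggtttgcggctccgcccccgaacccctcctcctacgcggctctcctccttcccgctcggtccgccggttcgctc
SLC4A2: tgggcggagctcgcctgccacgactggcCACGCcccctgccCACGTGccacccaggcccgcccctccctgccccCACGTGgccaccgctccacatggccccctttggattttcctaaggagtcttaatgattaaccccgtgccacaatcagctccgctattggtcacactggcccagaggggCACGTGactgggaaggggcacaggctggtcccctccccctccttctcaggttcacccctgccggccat
SLC12A2: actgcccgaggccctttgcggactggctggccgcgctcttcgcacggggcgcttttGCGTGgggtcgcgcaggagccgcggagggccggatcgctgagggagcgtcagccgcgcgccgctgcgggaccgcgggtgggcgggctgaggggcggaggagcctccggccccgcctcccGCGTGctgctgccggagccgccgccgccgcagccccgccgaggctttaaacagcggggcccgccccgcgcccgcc

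The SLC4A7 window held 3 matches to GCGTG, of which 2 lie in the bases shown, and that of SLC12A2 held 2, a motif that 36.5% of all windows hold at least once. The SLC4A2 window shown is the last of its 4 and held 3 matches to CACGTG. The window just before it overlaps it and held the same 3 matches, at the same bases. The window shown lies 5432 bases from the start of the gene, and the SLC4A2 windows at 990 and 2379 bases held 0 matches to CACGTG. Which of the 4 starts these cells use was not tested. In all, 33 windows, or 0.0940%, held 3 or more matches to CACGTG. That share is for a single window and motif, while 13 windows and 6 motifs were searched here. Over the 13 windows of the 5 genes, 9 held the core GCGTG, 2 the E-box, 1 the core GACGTG and 1 the motif CAGACA. The 2 with the E-box are the overlapping windows of SLC4A2. Of the 13 windows, 0 held the AP-1 or the palindromic SMAD motif. A match is a description of the letters, and binding was not measured.

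SLC16A1 and SLC16A3 encode the monocarboxylate transporters MCT1 and MCT4, which move lactate and a proton together, MCT4 being the form best known for lactate export from glycolytic cells. SLC16A1 (ENSG00000155380) lies on chr1:112911847-112957013, minus strand, and SLC16A3 (ENSG00000141526) on chr17:82228397-82261129, plus strand. SLC16A1 had 40.0, 39.2 and 28.1 FPKM in control, 39.0, 40.0 and 26.4 with TGF-β, 38.6, 37.7 and 29.1 with NH4Cl, and 39.2, 39.1 and 25.5 FPKM under both agents. SLC16A3 had 37.6, 35.2 and 56.5 FPKM in control, 36.5, 35.3 and 59.5 with TGF-β, 34.1, 35.3 and 52.0 with NH4Cl, and 36.2, 34.2 and 59.3 FPKM under both agents. The groups of each gene overlapped throughout, and the libraries numbered 3 were the lowest of each group for SLC16A1 and the highest for SLC16A3. Within numbers 1 and 2, SLC16A1 stayed between 37.7 and 40.0 FPKM and SLC16A3 between 34.1 and 37.6 FPKM over all 4 groups.

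SLC16A1 did not pass the test in any comparison, with log2 fold changes of -0.02, -0.05 and -0.02 in NH4Cl against control, NH4Cl plus TGF-β against control and NH4Cl plus TGF-β against TGF-β. The adjusted p = 0.832, 0.444 and 0.750 with the block, and the 95% intervals were -0.12 to 0.08, -0.16 to 0.05 and -0.13 to 0.08. SLC16A3 had log2 fold changes of -0.09, -0.01 and -0.02, with an adjusted p = 0.238, 0.915 and 0.793 and 95% intervals of -0.18 to 0.01, -0.11 to 0.09 and -0.12 to 0.08. Without the block the intervals in NH4Cl against control were -0.49 to 0.46 for SLC16A1 and -0.70 to 0.53 for SLC16A3. On the opposite strand, SLC16A3 shares 482 of 8995 exon bases with CSNK1D, at 15.8 FPKM, and SLC16A1 shares 175 of 5312 with SLC16A1-AS1, at 0.598 FPKM.

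The list of monocarboxylate transporters and their chaperones held 18 genes, 17 in the table and 8 tested. With the block 1 was higher in NH4Cl against control and 0 lower, at a list median of -0.02, and the same count was found for NH4Cl plus TGF-β against control, at -0.03. Of all genes 7.42% and 10.7% were higher in these 2 comparisons. The higher gene was SLC16A13, the transporter MCT13, at 4.70, 5.10 and 5.34 FPKM in control and 6.11, 7.16 and 6.20 FPKM with NH4Cl. Its log2 fold change was 0.31 (adjusted p = 0.157 without and 0.0227 with the block), and 0.27 in NH4Cl plus TGF-β against control (adjusted p = 0.0299 with the block, and 0.0554 without number 3). BSG, which encodes basigin, the chaperone that takes MCT1 and MCT4 to the cell surface, measured 101 to 112 FPKM, and the related EMB averaged 0.00617 FPKM.

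CA2 and CA13 are cytosolic carbonic anhydrases, and CA12 is a membrane-bound form whose active site faces outward. CA2 (ENSG00000104267) lies on chr8:85463852-85481493 and CA13 (ENSG00000185015) on chr8:85220587-85284073, both on the plus strand, and CA12 (ENSG00000074410) on chr15:63321378-63382161, minus strand. CA2 had 0.445, 0.384 and 1.11 FPKM in control, 0.380, 0.465 and 0.713 with TGF-β, 0.580, 0.865 and 0.880 with NH4Cl, and 0.795, 0.678 and 1.44 FPKM under both agents. CA13 had 0.481, 0.442 and 0.415 FPKM in control, 0.350, 0.346 and 0.274 with TGF-β, 0.316, 0.332 and 0.263 with NH4Cl, and 0.418, 0.213 and 0.170 FPKM under both agents. For CA2 all groups overlapped, with number 3 the highest library in each. For CA13 the control libraries were above all those with TGF-β alone and all those with NH4Cl alone, while the group with both overlapped control. Among the genes tested, which do not include CA13, 3.56% had such a gap in TGF-β against control and 17.5% in NH4Cl against control. CA12 ranged from 0.0277 to 0.0837 FPKM, with all groups overlapping. These levels rest on 14 to 52 reads per library for CA2, 16 to 45 for CA13 and 3 to 10 for CA12.

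In fits without the filter on low values and with the block, chosen after seeing the data, no call was made for CA2, CA13 or CA12 in any of the 6 comparisons. CA2 had its largest log2 fold change in NH4Cl plus TGF-β against TGF-β, at 0.36 (adjusted p = 0.101), and 0.76 with a pseudocount of 0.1 (adjusted p = 0.108), being higher in 3 of 3 numbers. In NH4Cl against control it was 0.13 (adjusted p = 0.599), higher in 2 of 3 numbers. CA13 had -0.20 in NH4Cl plus TGF-β against control (adjusted p = 0.0854), lower in 3 of 3 numbers, and -0.15 in NH4Cl against control (adjusted p = 0.203), also lower in 3 of 3; with a pseudocount of 0.1 these were -0.63 (adjusted p = 0.153) and -0.44, neither being called. For CA12 the values with the block and without the filter lay between -0.02 and 0.01, and with a pseudocount of 0.1 between -0.16 and 0.05. Erythroid cells carry CA2, and the summed level of the 4 erythroid genes averaged 1.81, 1.39, 2.47 and 2.56 FPKM in control, TGF-β, NH4Cl and both. The endothelial genes averaged 2.62, 2.63, 3.86 and 4.11 FPKM and the fibroblast genes 9.03, 8.97, 10.4 and 10.3 FPKM in the same order, and their part in any value above was not tested. On the opposite strand, CA13 shares 191 of 5528 exon bases with AC011773.3.

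The list of carbonic anhydrases held 15 genes, 11 in the table and 4 tested. With the block, 1 was higher in NH4Cl against control, at a list median of 0.11, and in NH4Cl plus TGF-β against control 1 was higher and 1 lower, at a median of 0.16, as in NH4Cl plus TGF-β against TGF-β, at 0.28. Of all genes 7.42%, 10.7% and 10.3% were higher and 6.14%, 7.77% and 8.48% lower. The higher gene was CA11, a carbonic anhydrase-related protein without catalytic activity, at 3.42, 3.98 and 3.61 FPKM in control and 5.59, 5.52 and 5.77 FPKM with NH4Cl. Its log2 fold change was 0.51 (adjusted p = 0.0437 without and 0.00456 with the block, and 0.0524 with the block but without number 3), so CA11 rose also in the model without the block. It was 0.54 in NH4Cl plus TGF-β against control (adjusted p = 0.0291 and 0.00253) and 0.57 against TGF-β (adjusted p = 0.0232 and 0.00192). CA6, the secreted salivary form, had -0.32 in NH4Cl plus TGF-β against TGF-β (adjusted p = 0.479 without and 0.00712 with the block), -0.24 in NH4Cl plus TGF-β against control (adjusted p = 0.637 and 0.0252) and -0.11 in NH4Cl against control (adjusted p = 0.265 with the block). CA9 was the most abundant listed carbonic anhydrase, at a mean of 43.5 FPKM, against 0.728 FPKM for CA2.

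**Figure D3:**
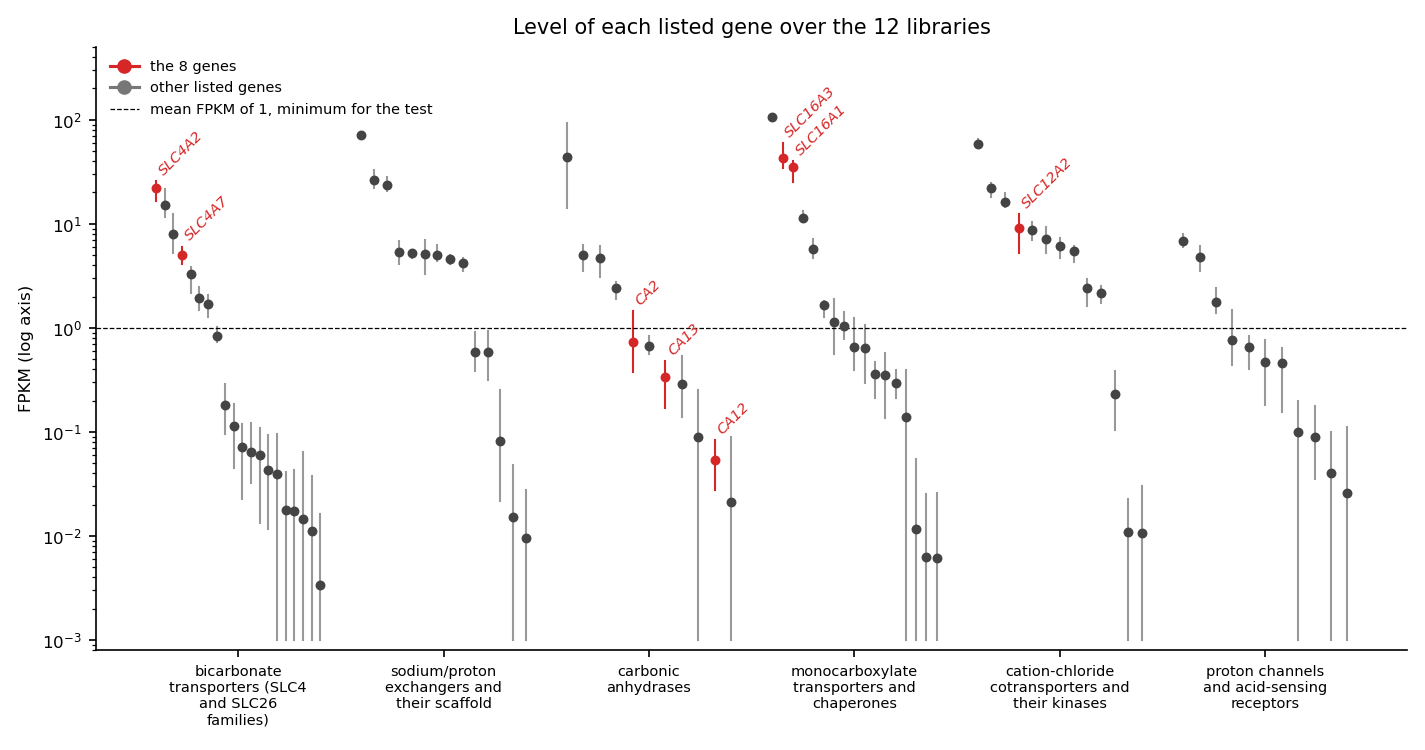
Mean FPKM (points) and range over 12 libraries (lines) of each listed gene in 6 lists on a log axis, with levels below 0.001 drawn at 0.001, the 8 genes in red and the dashed line at the minimum of the test. SLC4A2, SLC16A1 and SLC16A3 are near the top of their lists, while the means of CA2, CA13 and CA12 lie below the line.

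The Rh glycoproteins, which conduct ammonia, were low: RHAG averaged 0.00731, RHBG 0.0672 and RHCG 0.0374 FPKM, and the ammonia-permeable water channel AQP8 0.0298 FPKM.

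The list of sodium/proton exchangers and their scaffold, genes that let protons out and so act in the direction of SLC4A7, held 17 genes, 14 in the table and 9 tested. With the block 2 were higher and 0 lower in each of the 3 comparisons with NH4Cl, at list medians of 0.00, 0.03 and 0.02, where 7.42%, 10.7% and 10.3% of all genes were higher. SLC9A3, the apical exchanger NHE3, measured 3.45, 3.32 and 4.60 FPKM in control and 6.92, 6.22 and 6.63 FPKM with NH4Cl. These groups did not overlap, as for 17.5% of all genes tested. The log2 fold change of SLC9A3 was 0.67 (adjusted p = 0.0914 without and 0.00213 with the block). It was 0.55 in NH4Cl plus TGF-β against control (adjusted p = 0.123 and 0.00419). SLC9B2, the exchanger NHA2, rose also in the model without the block. It measured 4.14, 4.46 and 4.24 FPKM in control and 6.80, 6.87 and 5.70 FPKM with NH4Cl, a log2 fold change of 0.49 (adjusted p = 0.0402 and 0.00125), and 0.47 in NH4Cl plus TGF-β against control (adjusted p = 0.0354 and 0.00104).

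**Figure D4:**
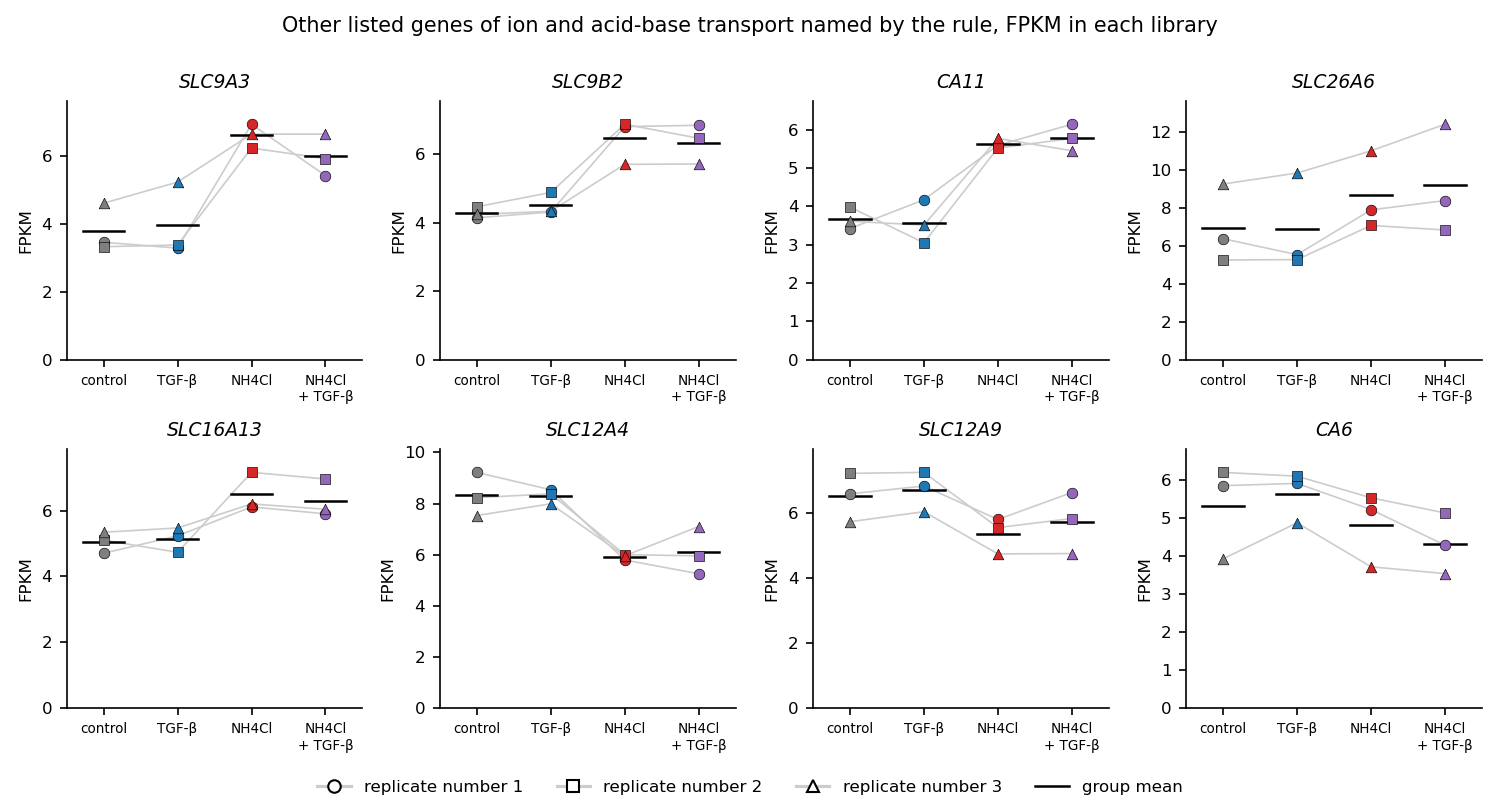
FPKM of 8 other listed genes in 12 libraries, with a marker shape for each replicate number, grey lines joining libraries of the same number and black bars for group means (n = 3). SLC9A3, SLC9B2, CA11 and SLC16A13 were higher and SLC12A4 lower in every NH4Cl library than in every control library. Such separation was seen in 17.5% of all genes tested. The genes shown were named for passing the threshold in a comparison of NH4Cl, alone or with TGF-β, against control.

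TGF-β against control asks what 1 h of the cytokine does alone, NH4Cl plus TGF-β against NH4Cl what it does after ammonium chloride, and the interaction whether these effects differ. Without the block limma called 0 of the 5 genes in each of these 3, where 0% of all genes were called, and at an unadjusted p under 0.05 it counted 0 of the 5 in each and 103, 165 and 115 of all genes. With the block it called 0 of 5 in TGF-β against control, against 0.00810% of all genes, 0 of 5 in NH4Cl plus TGF-β against NH4Cl, against 0.00810%, and 0 of 5 in the interaction, against 0%. At an unadjusted p under 0.05, limma with the block counted 0 of the 5 in each, and 422, 879 and 537 of all genes. The log2 fold change furthest from 0 was -0.03 for SLC16A1 with TGF-β against control, 0.08 for SLC16A3 in NH4Cl plus TGF-β against NH4Cl, and 0.07 for SLC16A3 in the interaction. For SLC4A7 the interaction was 0.02 (95% interval with the block -0.15 to 0.19), for SLC12A2 -0.06 (-0.22 to 0.11) and for SLC4A2 -0.04 (-0.20 to 0.11). In TGF-β against control, SLC4A7 and SLC12A2 were each at 0.00, with 95% intervals of -0.12 to 0.12 and -0.12 to 0.11 with the block.

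After the mean of each replicate number was subtracted, levels of SLC4A7 and SLC12A2 correlated over the 12 libraries at r = -0.948, SLC4A2 and SLC12A2 at r = 0.854, and SLC4A2 and SLC4A7 at r = -0.845, as a description. SLC16A1 and SLC16A3 gave r = -0.571. These libraries share the 4 groups, so genes that differ with NH4Cl correlate through it. The genes most like SLC12A2 by this measure were CCL20 (r = 0.994), SSRP1 (r = 0.993) and CXCL1 (r = 0.993), and CCL20 averaged 109, 111, 48.3 and 46.1 FPKM in control, TGF-β, NH4Cl and both. Most like SLC4A7 were AKR1A1 (r = 0.982), HSDL1 (r = 0.981) and GOLIM4 (r = 0.981), and most like SLC4A2 were NONO (r = 0.986), INTS1 (r = 0.977) and PPIL2 (r = 0.974). For SLC16A1 they were TMEM14A (r = 0.918), AC005332.6 (r = 0.918) and ATP6V1D (r = 0.915), and for SLC16A3 IL37 (r = 0.949), CENPBD1P1 (r = 0.932) and A4GALT (r = 0.927). All of these were picked as the highest r among the 12341 genes tested. Whether any exceeds what such a choice gives among unrelated genes was not tested.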

How the data were processed

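The authors trimmed the reads, aligned them to GRCh38 with STAR, counted them per gene and deposited FPKM. The labels name featureCounts for counting and the methods of the study name HTSeq. Log2(FPKM + 1), with a pseudocount of 1, entered limma 3.58.1 (R 4.3.3) as 4 group means for genes with a mean of at least 1 FPKM, with an intensity trend, two-sided, and Benjamini-Hochberg adjustment over all genes tested. The replicate number was also fitted as a block, because correlations within the 18 same-number pairs of groups, after group means were subtracted, were 0.349 to 0.774, and neither labels nor methods say what the number stands for. The procedure was tested on simulated data. From each of 6 pathway lists, at most 3 genes per comparison with control, those past the threshold with the largest absolute fold change, were named, and the 3 genes most alike per member. The 6 marker lists are described at the start of the report. The members and lists were chosen with earlier results of these data known. Of 27 alternatives, 25 were planned and 2 were chosen after seeing the data.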

Additional observations from a re-analysis of the deposited data

How the results depend on the processing

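SLC4A2, SLC4A7 and SLC12A2 kept their direction in all 28 fits of each comparison with NH4Cl, 20 without and 8 with the block. With the block, SLC4A2 was past the threshold in 2, 5 and 5 of 8 fits for NH4Cl against control, NH4Cl plus TGF-β against control and NH4Cl plus TGF-β against TGF-β, SLC4A7 in 6, 6 and 6, and SLC12A2 in 7, 8 and 8. In that order of comparisons, the genes called were 0, 0 and 0 in each fit without the block, of 5 genes, or of 8 without the filter; 3, 3 and 3 with the block; 0, 1 and 1 with numbers 2 and 3 only; 1, 1 and 1 with numbers 1 and 3 only; and 2, 2 and 2 with numbers 1 and 2 only. With the block they were 2, 3 and 3 after TPM scaling, 3, 3 and 3 after median centring, 2, 3 and 3 of 8 without the filter, and 2, 3 and 3 of 8 without the filter at a pseudocount of 0.1, these last 2 fits being chosen after seeing the data. The number of libraries differs in the fits on 2 numbers, and the cause of the other differences was not tested. The sign of SLC16A3 in NH4Cl plus TGF-β against control turned to 0.01 with the block on numbers 2 and 3 and to 0.01 on numbers 1 and 3. Leaving out each library in turn without the block, SLC16A1 ran from -0.18 to 0.11, from -0.21 to 0.14 and from -0.21 to 0.17 in the 3 comparisons, and SLC16A3 from -0.28 to 0.12, from -0.25 to 0.20 and from -0.27 to 0.22. In the same fits SLC4A2 ran from -0.30 to -0.05, from -0.31 to -0.09 and from -0.32 to -0.12, SLC4A7 from 0.24 to 0.32, from 0.26 to 0.34 and from 0.26 to 0.35, and SLC12A2 from -0.62 to -0.28, from -0.68 to -0.28 and from -0.68 to -0.28, both ends for SLC12A2 in all 3 comparisons and for SLC4A2 in the first 2 coming without a library of number 3, as did the -0.12. The comparison of only the groups involved could not be fitted for the interaction, which needs all 4. Over all genes, the 33 higher and 14 lower of NH4Cl against control without the block became 33 and 23 after median centring, the 916 and 758 with the block 777 and 892, and the 117 and 127 called in NH4Cl plus TGF-β against control and against TGF-β became 54 and 58 after TPM scaling. With 3 to 10 reads per library, CA12 allows no statement on a change.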

Other observations

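Proton channels and acid-sensing receptors formed a further list of 14 genes, of which 11 were in the table and 3, TMEM206, ASIC1 and GPR132, were tested. Limma called 0 of them in any of the 6 comparisons, without or with the block. Of all genes tested, 0.381% were called without the block in NH4Cl against control and 13.6% with it. These shares were 0.948% and 18.4% in NH4Cl plus TGF-β against control, and 1.03% and 18.8% against TGF-β. In the other 3 comparisons they were at most 0.00810%. At an unadjusted p under 0.05 limma counted 1 of the 3 listed genes in NH4Cl against control with the block and 0 otherwise. The list's median log2 fold change was 0.07 in NH4Cl against control, 0.05 in NH4Cl plus TGF-β against control and 0.01 in NH4Cl plus TGF-β against TGF-β. TMEM206, which encodes an acid-activated chloride channel, averaged 6.84 FPKM, ASIC1, an acid-sensing sodium channel, 4.76 FPKM, and GPR132 1.77 FPKM. HVCN1, the voltage-gated proton channel, averaged 0.0887 FPKM.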
